A study of Homo sapiens with 12 samples.

Results

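In HAP1 cells, 6108 cohesin regions were found in both genotypes that lacked the release factor WAPL, with and without the loader subunit SCC4, and in neither genotype that still had WAPL. They were chosen from chromatin immunoprecipitation sequencing (ChIP-seq) for SMC1, a core subunit of the cohesin ring. The peak lists of 4 genotypes were merged wherever intervals overlapped by at least 1 bp, which gave 38018 regions. The 6108 gained regions, 16.1% of all (95% Wilson interval 15.7 to 16.4), had an SMC1 peak in ΔWAPL and in ΔWAPL/ΔSCC4 and none in wild-type or ΔSCC4. The presence of SMC1 peaks thus chose the regions, and every SMC1 value below is a description of what was chosen. CTCF, the sequence and the position in the genome were not used in the choice. An IgG peak of any genotype lay at 4 of the 6108 (0.0655% against 1.15% of all SMC1 regions).

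HAP1 is an established, near-haploid human line of leukaemic origin. The samples were untreated cells of 4 genotypes: wild-type, ΔWAPL with a blasticidin cassette inserted in WAPL, ΔSCC4 with a puromycin cassette inserted in SCC4, and ΔWAPL/ΔSCC4, for which SCC4 was knocked out in ΔWAPL cells. The ΔWAPL and ΔSCC4 cells were clones made with CRISPR, the labels give ΔWAPL and ΔWAPL/ΔSCC4 the same clone number, and the parental cells carry a mutant p53. Each genotype was precipitated with antibodies against SMC1 and CTCF and with IgG, 1 library each, so the 12 libraries had no replicates, no test was made, and the loss of WAPL cannot be told apart from descent from the ΔWAPL line. All intervals given are 95% intervals for counting error only.

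Cohesin is a ring that entraps DNA and shapes chromosomes into loops. The SCC2/SCC4 complex helps to load the ring and to enlarge loops, WAPL opens the ring and releases it, and CTCF, a zinc-finger protein that binds a long asymmetric DNA motif, marks the places where loops usually end. In the absence of WAPL cohesin stays on DNA for longer. The 4 genotypes allow cohesin sites to be sorted by the genotypes in which a peak was listed, which does not show what a site needs.

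Sequences are shown for a part of the 17 gained regions that ranked highest within their CTCF group by the weaker of both SMC1 peaks. Those not printed include a CTCF region on chromosome 4 without a motif match, and the strongest region with neither CTCF nor a start within 1 kb. The consensus of the CTCF motif, learned from the strongest wild-type CTCF peaks, was TGGCCACCAGGGGGCGCTG. In the following 8 regions a CTCF peak was present, in the first 6 in all genotypes and in the last 2 only in ΔWAPL and ΔWAPL/ΔSCC4. The capitals mark the best match to the motif, on the strand given, with 20 bp on each side (hg19).
ENSG00000251387 intron, chr5:139154852-139154910, plus strand: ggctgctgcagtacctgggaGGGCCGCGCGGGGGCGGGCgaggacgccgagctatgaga
LINC02418 intron, chr12:130526934-130526992, plus strand: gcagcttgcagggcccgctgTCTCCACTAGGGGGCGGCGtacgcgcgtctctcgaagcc
GMPR intron, chr6:16286460-16286518, plus strand: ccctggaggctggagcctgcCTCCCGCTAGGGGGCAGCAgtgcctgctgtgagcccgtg
ASB2 locus, non-coding exon of ENSG00000258987, chr14:94406130-94406188, plus strand: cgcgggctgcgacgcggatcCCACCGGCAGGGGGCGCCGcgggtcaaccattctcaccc
MAP1LC3C coding exon, chr1:242161783-242161841, minus strand: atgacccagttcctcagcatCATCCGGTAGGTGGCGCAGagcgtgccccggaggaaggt
PHACTR3 intron, chr20:58358264-58358322, plus strand: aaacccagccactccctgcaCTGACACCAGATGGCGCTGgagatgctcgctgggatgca
Chromosome 4, intergenic, chr4:189294196-189294254, minus strand: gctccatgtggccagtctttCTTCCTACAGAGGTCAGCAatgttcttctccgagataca
Chromosome 12, intergenic, chr12:115836270-115836328, minus strand: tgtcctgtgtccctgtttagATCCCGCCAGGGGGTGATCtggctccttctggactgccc

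Regions without CTCF in any genotype are shown next. The windows below are 81 bp centred on the ΔWAPL SMC1 summit on the plus strand, and capitals mark the GC box GGGCGG, the word bound by SP and KLF factors, on either strand. The ADAT2 and SCAMP5 windows lie at start sites, the others are farther than 1 kb from any, and the ADAT2 and chromosome 2 windows hold no GC box. The chromosome 6 and chromosome 2 windows also hold a match to the CTCF motif, of 8.25 and 9.72 bits, which is not marked.
ADAT2 start site, chr6:143771839-143771919: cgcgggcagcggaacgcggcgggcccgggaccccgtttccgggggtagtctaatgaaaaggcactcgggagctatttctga
SCAMP5 intron at the start site, chr15:75287747-75287827: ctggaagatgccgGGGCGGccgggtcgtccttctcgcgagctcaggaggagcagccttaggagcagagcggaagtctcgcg
Chromosome 6, intergenic, chr6:157008677-157008757: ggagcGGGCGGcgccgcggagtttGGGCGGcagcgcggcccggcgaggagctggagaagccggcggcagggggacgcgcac
Chromosome 2, intergenic, chr2:10410811-10410891: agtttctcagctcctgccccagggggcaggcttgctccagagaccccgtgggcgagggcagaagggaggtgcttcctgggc

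The SMC1 peaks of the gained regions were of moderate height. The median number of reads over the summit was 20 in ΔWAPL (quartiles 16 and 27, range 8 to 104) and 16 in ΔWAPL/ΔSCC4 (14 and 20, range 9 to 54). To compare libraries, the reads at the summit were expressed as multiples of each library's mean pileup, which gave medians of 12.6 and 10.4. Regions with a peak in all 4 genotypes had medians of 26.4 and 20.1 in the same libraries, and regions missing only in ΔSCC4 had 16.9 and 13.6. Regions of ΔWAPL alone were lower than the gained regions, with a median of 10.0 in ΔWAPL. In its own list, a gained region stood at a median percentile of 41.2 in ΔWAPL and 28.1 in ΔWAPL/ΔSCC4, where 100 is the strongest peak.

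Most gained regions were lower when SCC4 was absent too. The ratio of the pileup in ΔWAPL/ΔSCC4 to that in ΔWAPL had a median of 0.845 (quartiles 0.657 and 1.08), and 4150 of the 6108 (67.9%) were lower in ΔWAPL/ΔSCC4. The median ratio was 0.769 at regions of all 4 genotypes and 0.766 at those missing only in ΔSCC4. The summits of both libraries lay within 100 bp of each other in 5017 gained regions (82.1%), and the median width of a region was 390 bp.

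**Figure D1:**
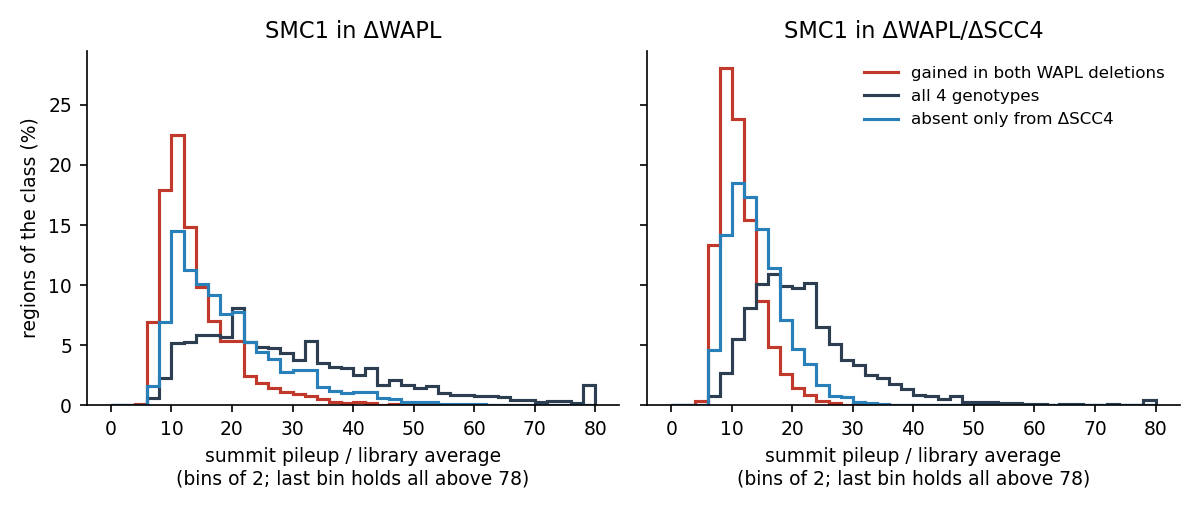
Share of regions (%, vertical axis) by SMC1 summit pileup divided by the library average (horizontal axis, bins of 2) in ΔWAPL and in ΔWAPL/ΔSCC4, for gained regions (red), regions of all 4 genotypes (dark) and regions absent only from ΔSCC4 (blue). Gained regions lie lowest of the 3 classes drawn, with medians of 12.6 and 10.4, and overlap the others widely.

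The lists hold no value for SMC1 where no peak was called, so the absence from wild-type and ΔSCC4 was described by the pileup that a peak would have needed there. With the local background scaled from ΔWAPL, a summit had to reach a median of 10 reads in wild-type (quartiles 9 and 12) and 11 reads in ΔSCC4 (10 and 13). The ΔWAPL pileup was a median of 1.87 times that limit for either library. Since the rule asked for a peak in ΔWAPL and none in the other libraries, a ratio above 1 is nearly fixed by the choice, and the ratios carry the counting error of a median of 20 reads. The ratio was at least 1.5 in 78.5% of gained regions for wild-type and 77.9% for ΔSCC4, at least 2 in 40.4% and 40.3%, and at least 3 in 7.99% and 7.84%. These values describe how far the chosen ΔWAPL peaks lay from the limit and measure no rise, and SMC1 below the limit in wild-type or ΔSCC4 was not detectable from the lists. The lower ΔWAPL/ΔSCC4 peaks were not set against it. The caller also drops intervals shorter than a fragment, so the limits are approximate.

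The rule has a threshold at its edge. The weakest peaks inside it had a −log10 q of 1.45 in ΔWAPL and 1.37 in ΔWAPL/ΔSCC4, and in 240 gained regions either peak was under 3. Just outside lay 5372 regions that missed the rule by a wild-type peak alone, the weakest at a −log10 q of 1.83, and 994 that missed it by a ΔSCC4 peak alone, the weakest at 1.87. In 129 of the former and 78 of the latter that peak was under 3. With only the 12779 peaks of highest −log10 q in every SMC1 list, the length of the ΔSCC4 list, 843 regions met the rule, of which 419 were among the 6108. When every list was limited to peaks with a −log10 q of at least 10, 4164 regions met it, and 3322 of these (79.8%) had a weaker peak in the deposited wild-type or ΔSCC4 list.

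Among gained regions with CTCF in all genotypes, the first by its weaker SMC1 peak was the intronic ENSG00000251387 region, 55 bp from the start of ENSG00000271792 (chr5:139154580-139155134), with 104 reads in ΔWAPL and 48 reads in ΔWAPL/ΔSCC4, whereas 16 reads would have made a peak in wild-type and 17 in ΔSCC4. Its ΔWAPL pileup was 6.43 times the wild-type limit. The wild-type CTCF summit there had 94 reads, followed by 97 for ΔWAPL, 92 for ΔSCC4 and 102 for ΔWAPL/ΔSCC4, or 86.7, 70.8, 75.1 and 83.6 times the library average. CTCF was thus listed in every genotype, and its order depended on the scale, with wild-type highest relative to the library average and ΔWAPL/ΔSCC4 highest in reads and in deposited fold enrichment (22.8 against 20.4 in wild-type). SMC1 was listed in the WAPL deletions alone.

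CTCF varied more at some of the other strong examples, such as GMPR and MAP1LC3C. In the GMPR intron (chr6:16286135-16286750), 3249 bp from the start of this guanosine monophosphate reductase gene, SMC1 had 68 reads in ΔWAPL and 46 in ΔWAPL/ΔSCC4. For CTCF, wild-type had 58 reads at the summit, ΔWAPL 85, ΔSCC4 40 and ΔWAPL/ΔSCC4 93, or 53.5, 62.0, 32.7 and 76.3 times the library average. In the coding exon of MAP1LC3C (chr1:242161622-242162227), an LC3 family gene of autophagy, SMC1 had 66 and 43 reads, and CTCF had 34, 56, 27 and 76 reads in the same order. The intron of PHACTR3 (chr20:58358048-58358587), a phosphatase and actin regulator, had 66 and 40 SMC1 reads and CTCF at 74.7, 58.4, 58.0 and 66.4 times. At GMPR and MAP1LC3C CTCF was lowest in ΔSCC4 and highest in ΔWAPL/ΔSCC4, and at PHACTR3 it was highest in wild-type relative to the average, with 81 reads in both wild-type and ΔWAPL/ΔSCC4.

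The next question was how often CTCF marks the gained regions. The wild-type CTCF list had a peak at 82.6% of them (interval 81.6 to 83.5, with 77.8% of all SMC1 regions), and the ΔWAPL list at 87.4% (86.5 to 88.2, with 80.7%). The ΔSCC4 list had one at 74.1% (73.0 to 75.2, with 73.3%), and the ΔWAPL/ΔSCC4 list at 87.8% (87.0 to 88.6, with 81.0%). In 4440 gained regions, 72.7% against 72.0% of all SMC1 regions, CTCF was called in all 4 genotypes. No CTCF peak was called in any genotype at 637 (10.4% against 16.6%). The share with CTCF in ΔWAPL lay below that of regions of all 4 genotypes (99.0%) and of regions missing only in ΔSCC4 (96.1%), and above that of regions found in ΔWAPL alone (49.8%), with intervals apart.

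**Figure D2:**
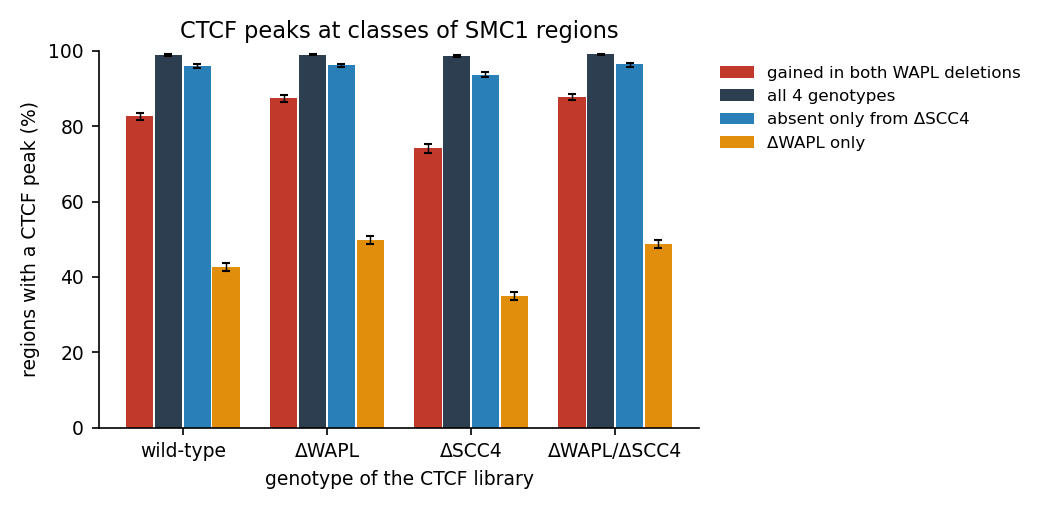
Share of SMC1 regions with an overlapping CTCF peak (%, vertical axis) in the CTCF library of each genotype (horizontal axis), by class of SMC1 region. Error bars are 95% Wilson intervals. The gained regions (red) stand between regions absent only from ΔSCC4 and regions found in ΔWAPL alone in every library, and lowest in ΔSCC4 at 74.1%.

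A minority of gained regions had CTCF peaks that followed the genotype as SMC1 did. In 264 regions, 4.32% (3.84 to 4.86) against 2.38% of all SMC1 regions, CTCF was called in ΔWAPL and ΔWAPL/ΔSCC4 only. The regions of ΔWAPL alone had a like share, 4.91% (4.49 to 5.37). These CTCF peaks were low, with median pileups of 16.1 and 16.4 times the library average. A further 510 had CTCF in every genotype but ΔSCC4 (8.35%, with 4.19% of all SMC1 regions). The strongest of the 264 was intergenic on chromosome 4 (chr4:189294021-189294441), 16593 bp from the nearest start, that of the pseudogene ICE2P1. It had 91 SMC1 reads in ΔWAPL and 52 in ΔWAPL/ΔSCC4, and 122 and 70 CTCF reads in the same genotypes. The next in rank, also on chromosome 4 (chr4:115299484-115299809), had 41 and 35 SMC1 reads, 63 and 35 CTCF reads, and no match to the CTCF motif. The chromosome 12 region (chr12:115836067-115836611) followed, with 34 and 33 SMC1 reads and 34 and 40 CTCF reads.

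The level of CTCF placed the gained regions among weaker sites. Where CTCF was called in all 4 genotypes, its wild-type summit pileup had a median of 37.8 times the library average (quartiles 24.9 and 54.4). The medians were 67.3 at SMC1 regions of all 4 genotypes, 53.5 at regions missing only in ΔSCC4 and 29.5 at regions of ΔWAPL alone, so wild-type CTCF was higher in the classes with SMC1 peaks in more genotypes, with wide overlap. The motif score at the CTCF summit, taken at regions with a CTCF peak in any genotype, had medians in the same order. The median score was 13.4 bits at gained regions, against 16.2 bits at SMC1 regions of all 4 genotypes, 14.9 missing only in ΔSCC4 and 12.2 in ΔWAPL alone. It was counted on even-numbered chromosomes.

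Seen from the CTCF list, gained regions were most frequent at CTCF peaks of middle height. Of the 43050 wild-type CTCF peaks, 5065 (11.8%) lay at a gained region. When the peaks were ranked by pileup into 10 equal groups, the share was 4.65% in group 1, the weakest (interval 4.06 to 5.32), 17.7% in group 5 (16.6 to 18.9) and 4.74% in group 10 (4.14 to 5.41). In group 1, 81.2% of the CTCF peaks had no SMC1 region in any genotype, and in group 10, 71.9% had one in all 4. Regions missing only in ΔSCC4 were most frequent in group 7, where 946 of 4305 peaks lay at one (20.8 to 23.2%), against 698 at a gained region.

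**Figure D3:**
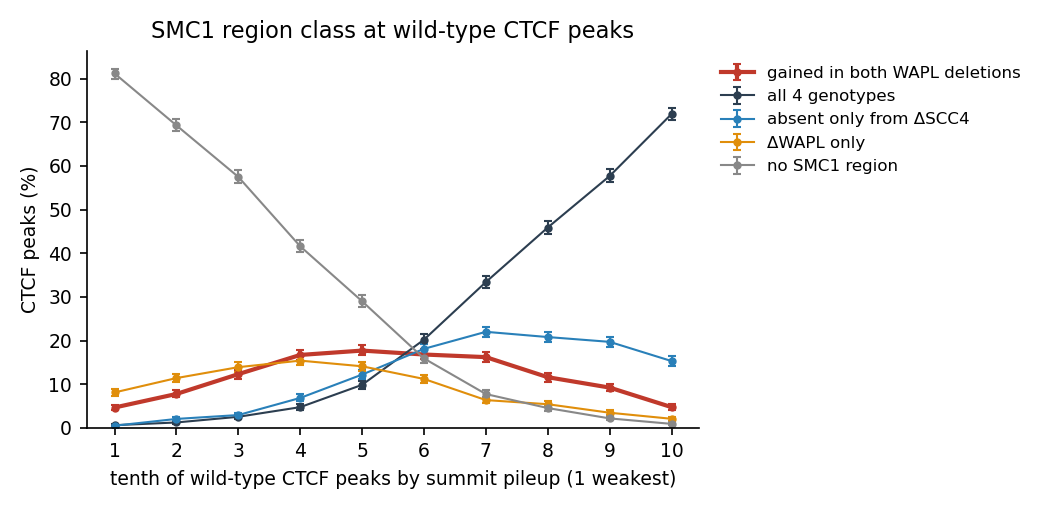
Share of wild-type CTCF peaks (%, vertical axis) that lay at each class of SMC1 region, or at none, in 10 equal groups of CTCF peaks ranked by summit pileup (horizontal axis, 1 weakest). Error bars are 95% Wilson intervals. Gained regions (red) rise from 4.65% to 17.7% in group 5 and fall to 4.74% in group 10.

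CTCF itself differed between genotypes at these regions. Across the 4440 gained regions with CTCF in all genotypes, the wild-type median was 37.8 times the average, with 35.0 for ΔWAPL, 28.6 for ΔSCC4 and 37.7 for ΔWAPL/ΔSCC4. The median ratio of ΔWAPL to wild-type was 0.882, that of ΔSCC4 0.773 and that of ΔWAPL/ΔSCC4 0.961. Over all SMC1 regions with CTCF in all genotypes it was 0.805, 0.798 and 0.907, and at the regions of ΔWAPL alone 0.870, 0.765 and 0.936. The gained regions thus stood above the whole set of regions in both WAPL deletions and below them in ΔSCC4, and near the regions of ΔWAPL alone in each genotype. With the deposited fold enrichment in place of the pileup, the median ratio of ΔWAPL to wild-type was 0.996.

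**Figure D4:**
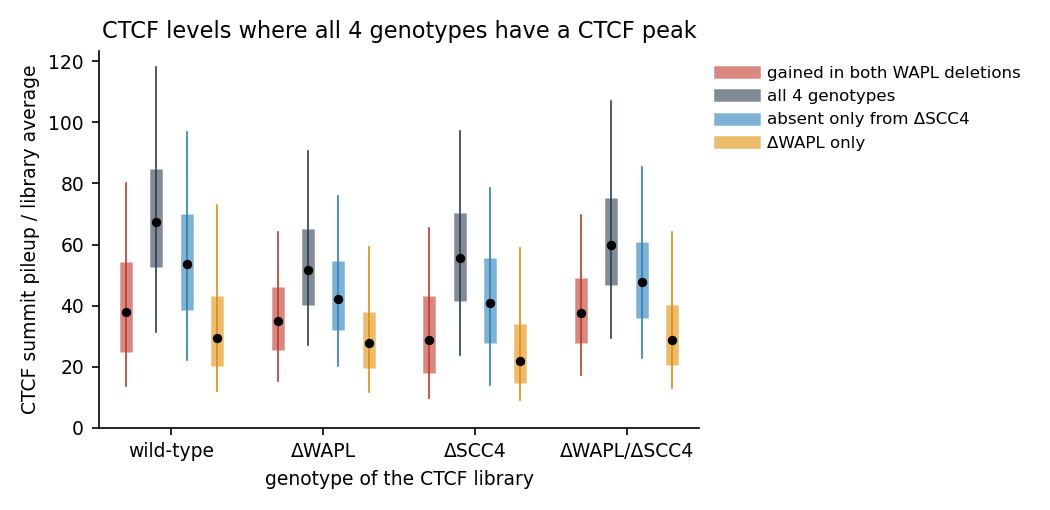
CTCF summit pileup divided by the library average (vertical axis) in each genotype (horizontal axis), for SMC1 regions of each class where all 4 CTCF lists had a peak. Points are medians, thick bars span the quartiles and thin lines the 5th to 95th percentile. The gained regions (red) have medians of 37.8, 35.0, 28.6 and 37.7.

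Some gained regions had more CTCF in the WAPL deletions than in wild-type. The pileup was at least 1.5 times that of wild-type in 322 of the 4440 in ΔWAPL (7.25% against 2.85% of all such SMC1 regions) and in 440 in ΔWAPL/ΔSCC4 (9.91% against 4.16%). It was at least 1.5 times lower in 549 in ΔWAPL (12.4% against 16.5%) and in 223 in ΔWAPL/ΔSCC4 (5.02% against 5.79%). In ΔSCC4, 42 were higher (0.946% against 0.559%) and 1291 lower (29.1% against 21.8%). The regions of ΔWAPL alone had a like upper range in ΔWAPL, so this was not particular to the gained regions. The 95th percentile of the ΔWAPL ratio to wild-type was 1.61 there and 1.58 at gained regions. For ΔWAPL/ΔSCC4 it was 1.62 and 1.78.

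These differences were then examined at like levels of wild-type CTCF, since a ratio to wild-type is higher wherever the wild-type value is low. At a wild-type pileup of 15 to 30 times the average, the median ratio of ΔWAPL/ΔSCC4 to wild-type was 1.17 at 1270 gained regions and 1.04 at 3394 other SMC1 regions, and 19.2% (interval 17.1 to 21.5) against 9.72% (8.77 to 10.8) were at least 1.5 times higher. At 30 to 45 times, the median ratio of ΔWAPL was 0.901 against 0.859, and the share 2.07% (1.38 to 3.08) against 0.620% (0.423 to 0.906). The ΔWAPL/ΔSCC4 medians there were 0.980 and 0.936. At 60 to 90 times, the ΔWAPL medians were 0.768 and 0.755, and none of 702 gained regions was 1.5 times higher (upper Wilson bound 0.544%). The ΔWAPL/ΔSCC4 medians lay the other way, at 0.874 against 0.889 for 45 to 60 times and 0.841 against 0.865 for 60 to 90 times. In both WAPL deletions the gained regions thus stood above the others up to 45 times the average, and above that only in ΔWAPL, by a small margin. The others were all remaining SMC1 regions pooled, and the regions of ΔWAPL alone were not set apart. In ΔSCC4 the medians were 0.753 against 0.779 at 15 to 30 times and 0.776 against 0.806 at 60 to 90 times.

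By the rule, the gained regions are also those ΔWAPL sites that were listed in ΔWAPL/ΔSCC4 as well. Of the 15346 regions with a peak in ΔWAPL but not in wild-type or ΔSCC4, the 6108 made up 39.8% (39.0 to 40.6), and the other 9238 were listed in ΔWAPL alone. The share was 59.4% where CTCF was called in all 4 genotypes (4440 of 7479, interval 58.2 to 60.5), 33.9% where it was called in some (32.3 to 35.6) and 13.2% where it was called in none (637 of 4829, 12.3 to 14.2). Taller peaks in ΔWAPL were also found in ΔWAPL/ΔSCC4 more often. With CTCF in all genotypes the share went from 42.2% at a pileup of up to 8 times the average to 80.4% above 20 times, and without CTCF from 5.76% to 27.9%. At every level of SMC1 the intervals with and without CTCF were apart. The SMC1 lists chose these regions, so the trend with SMC1 height describes the choice. A region of ΔWAPL alone may still hold SMC1 below the calling limit in ΔWAPL/ΔSCC4. That library had 6.79 reads per kb against 7.66 for ΔWAPL, and the part of depth was not tested.

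**Figure D5:**
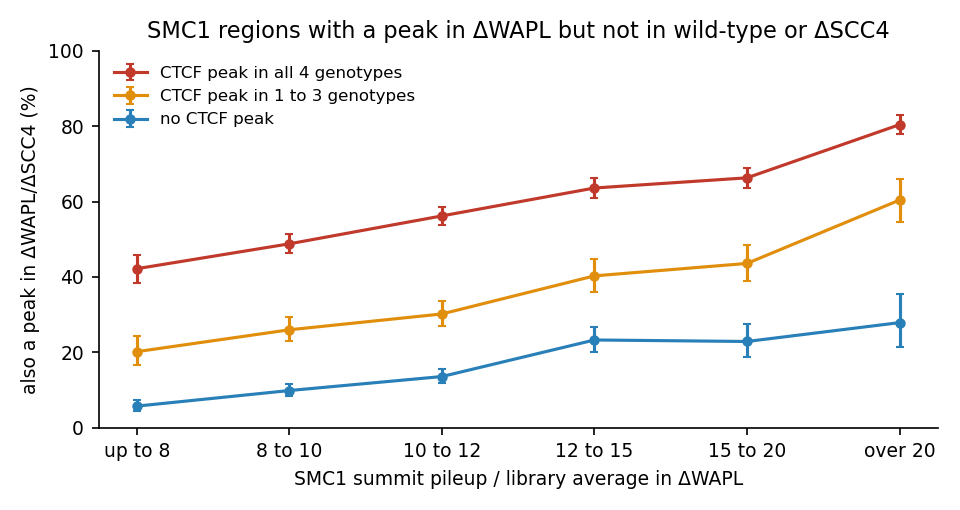
Share of SMC1 regions with a peak in ΔWAPL but not in wild-type or ΔSCC4 that also had one in ΔWAPL/ΔSCC4 (%, vertical axis), by the SMC1 summit pileup in ΔWAPL divided by the library average (horizontal axis). Error bars are 95% Wilson intervals. The share is higher with CTCF in all genotypes (42.2% to 80.4%) than without CTCF (5.76% to 27.9%) in each bin.

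The gap between regions with and without CTCF was also present at like base composition and like distance to start sites. At a GC content over 70% around the summit, the share was 53.0% with CTCF in all genotypes (interval 48.7 to 57.3) and 16.9% without CTCF (15.5 to 18.5). At up to 50% GC it was 65.3% (63.8 to 66.8) and 3.54% (1.72 to 7.12). Within 1 kb of a start site the share was 49.6% with CTCF in all genotypes (47.2 to 52.0) and 14.4% without (13.4 to 15.5), and farther away it was 62.2% and 5.53%. Without CTCF, regions near start sites and regions rich in GC were thus more often listed in both WAPL deletions. With CTCF in all genotypes the share was lower near start sites. By GC it was highest at up to 50%, with 54.7% at 50 to 60% GC and 50.4% at 60 to 70%. Within 1 kb of a start it had no steady order, at 53.2%, 46.0%, 48.8% and 51.7% from the lowest to the highest GC group.

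Position relative to genes split the gained regions by CTCF. Of all 6108, 1792 (29.3%, interval 28.2 to 30.5) lay within 1 kb of a transcript start, against 32.7% of all SMC1 regions. Of those without CTCF 600 of 637 did (94.2%, 92.1 to 95.8), against 833 of 4440 with CTCF in all genotypes (18.8%, 17.6 to 19.9). At 569 of the 600 a protein-coding start was within 1 kb, and at 57 (9.50%, 7.40 to 12.1) protein-coding starts lay on both strands. Among the regions of ΔWAPL alone without CTCF, 84.9% (83.8 to 86.0) were near a start, below the 94.2%, and 13.8% of these (492 of 3560) had starts on both strands. By the annotation, 47.8% of the gained summits were intronic, 34.6% intergenic, 8.30% in untranslated exons, 4.57% in coding exons and 4.75% in exons of non-coding transcripts. Over all SMC1 regions these shares were close, at 46.4%, 34.3%, 9.08%, 4.55% and 5.70%.

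The 637 gained regions without CTCF, of which 37 were not near a start, were CpG-rich. The median GC content around the summit was 72.6% without CTCF and 48.3% with CTCF in all genotypes, and the median number of CpG within 100 bp on each side was 23 and 3. The GC box GGGCGG, counted on both strands, occurred in 62.6% of these gained windows without CTCF (58.8 to 66.3), in 54.8% of the ΔWAPL-only windows without CTCF (53.3 to 56.3), in 12.5% of the gained windows with CTCF and in 22.4% of all SMC1 regions. The NF-Y word CCAAT occurred in 9.42%, 11.5%, 22.9% and 20.3% of the same windows. The AP-1 word TGANTCA was in 1.88% of the gained windows without CTCF and 5.90% of those with CTCF (4.43% of all), and the E-box CACGTG in 2.67% and 2.66% (3.14% of all). The ETS word was in 21 of the 637 and in 0.473% (0.960% of all). The words of NRF1, YY1 and CRE were in at most 1.26% of any of these groups of windows. GGGCGG can overlap a CTCF match, as in the LINC02418 sequence above, and a match describes the letters only.

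Individual start sites show the range. At DDX1, a DEAD-box RNA helicase gene (chr2:15731747-15732519, summit 33 bp from the start), SMC1 had 61 reads in ΔWAPL and 28 in ΔWAPL/ΔSCC4, where 16 and 17 would have made a peak in wild-type and ΔSCC4. At ADAT2, a tRNA adenosine deaminase gene (chr6:143771589-143772151, 47 bp), it had 41 and 26 reads with limits of 11 and 12. ITGB3BP, which encodes a centromere protein (chr1:63988781-63989183, 57 bp), had 33 and 23 reads with a limit of 10 in both. SCAMP5, a secretory carrier membrane protein gene (chr15:75287591-75288207, 96 bp), had 39 and 28 reads with limits of 15 and 16. All 4 were lower in ΔWAPL/ΔSCC4, and none had a match to the CTCF motif at the summit.

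Only 37 gained regions had neither CTCF nor a start within 1 kb. The strongest was intergenic on chromosome 9 (chr9:69785923-69787550), with 47 SMC1 reads in ΔWAPL and 22 in ΔWAPL/ΔSCC4. The next, on chromosome 2 (chr2:10410656-10410999), had 23 and 24 reads over backgrounds of 2.37 and 2.20, and held a motif match of 9.72 bits although no CTCF library had a peak there. The regions on chromosome 6 (chr6:157008210-157009010) and chromosome 11 (chr11:355930-356537) had 36 and 19 reads and 21 and 16 reads. Their motif scores were 8.25 and 6.46 bits, where 5% of flanking windows pass 6.10 bits.

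The CTCF motif was found at 61.5% of the gained SMC1 summits (1754 of 2851 on even-numbered chromosomes, interval 59.7 to 63.3), against 61.7% of all SMC1 regions. The share was 67.0% with CTCF in all genotypes (65.0 to 69.0) and 30.4% without CTCF (25.5 to 35.8). Among regions of all 4 genotypes 78.6% matched (77.4 to 79.7), and among those of ΔWAPL alone 1835 of 4171 did (42.5 to 45.5%). At the score that 1% of flanking windows pass, 56.7% of the gained summits with CTCF in all genotypes and 6.21% of those without CTCF matched. Of the gained regions with a CTCF peak in any genotype, 87.4% held a match around the CTCF summit itself (2224 of 2545, 86.0 to 88.6). Over all SMC1 regions with a CTCF peak it was 88.3%. Of the 264 with CTCF in the WAPL deletions only, 69.8% did (61.7 to 76.8, 139 on even-numbered chromosomes).

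CTCF summits lay on the 5′ side of the motif, and SMC1 summits were nearly centred on it. Taking the centre of the motif as 0 and its 3′ side as positive, the SMC1 summit of the 3954 gained regions with a motif that 1% of flanking windows pass lay at a median of 5 bp in ΔWAPL (quartiles −23 and 32) and 2 bp in ΔWAPL/ΔSCC4 (−27 and 32). The wild-type CTCF summit lay at −8 bp, that of ΔWAPL at −9, of ΔSCC4 at −6 and of ΔWAPL/ΔSCC4 at −7, where these libraries had a peak. SMC1 was on the 3′ side in 53.6% of gained regions in ΔWAPL (52.0 to 55.1) and in 51.7% in ΔWAPL/ΔSCC4 (50.1 to 53.2), and CTCF in 32.0% in ΔWAPL (30.6 to 33.5). At regions of all 4 genotypes the share for SMC1 was 53.5% in ΔWAPL, and between 49.3% and 50.4% in the other genotypes.

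Towards the nearest constant cohesin site, divergent motifs were more frequent than convergent ones, in gained regions as in the other classes. Their motif was in tandem with that of the nearest region of all 4 genotypes in 50.3% (48.8 to 51.9), divergent in 29.4% (28.0 to 30.8) and convergent in 20.3% (19.1 to 21.6). At regions of ΔWAPL alone the shares were 49.0%, 31.2% and 19.8%. The nearest region of all 4 genotypes was at a median distance of 71.9 kb (quartiles 22.4 and 182), and the nearest other gained region at 124 kb (38.1 and 295). Within 10 kb of another gained region lay 8.96% of them. The like share within the own class was 11.6% for all 4 genotypes, 6.78% missing only in ΔSCC4 and 18.5% in ΔWAPL alone. These classes differ in size. The median distance to a region of all 4 genotypes was 66.5 kb for those missing only in ΔSCC4 and 56.3 kb for ΔWAPL alone.

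Gained regions were found on chromosomes 1 to 22 and X, with none among 75 SMC1 regions on Y and 7 on the mitochondrial genome. They made up between 10.9% of the SMC1 regions on chromosome 19 (interval 9.29 to 12.8) and 19.5% on chromosome 13 (17.2 to 22.1). The share was 19.2% on chromosome 18 and 19.4% on X, and 12.4% on chromosome 17 and 13.1% on chromosome 16. The median GC content of the SMC1 regions was 61.2% on chromosome 19 and 49.3% on chromosome 13. The order of shares did not follow GC throughout. Chromosome 4 had the lowest median GC content of the chromosomes with gained regions, 47.8%, and a share of 16.7%.

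In protein-coding genes, 3131 gained summits (51.3%) fell within the body of a gene, and 2753 of 20149 such genes (13.7%) held at least 1. The same shares for all SMC1 regions are not given here, so these values describe the gained regions only. The genes with most gained regions were long. DLG2, a synaptic scaffold gene of 2173 kb, held 10 gained among 24 SMC1 regions, 7 of them with CTCF in all genotypes. In those 10 SMC1 had between 14 and 28 reads in ΔWAPL and between 13 and 30 in ΔWAPL/ΔSCC4. The X-linked gene ENSG00000250349 held 8 of 23, and the receptor phosphatase gene PTPRD 6 of 20. PDE4D, a cAMP phosphodiesterase, held 5 of 16, PLCL1, a phospholipase C-like gene, 5 of 8, the axon guidance receptor ROBO1 5 of 14, and ENSG00000249209 on chromosome 21 5 of 10.

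PHACTR1, a relative of PHACTR3, stood out in that all 6 of its SMC1 regions were gained. All 6 were intronic, with 12 to 25 reads in ΔWAPL and 13 to 19 in ΔWAPL/ΔSCC4, and 5 had CTCF in all genotypes. The strongest CTCF among them (chr6:12844934-12845310) had a wild-type level of 71.9 times the average, against 56.9 for ΔWAPL, 51.4 for ΔSCC4 and 62.3 for ΔWAPL/ΔSCC4, with 14 and 17 SMC1 reads. In the region nearest the 3′ end (chr6:13278511-13278852), CTCF stood at 12.9, 8.76 and 26.2 times in wild-type, ΔWAPL and ΔWAPL/ΔSCC4 and was not called in ΔSCC4.

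Genes of the cohesin machinery held 6 gained among 32 SMC1 regions (18.8%, with 16.1% over all regions), in 4 of 13 genes with any. HDAC8, the deacetylase of SMC3, held 2 of 3, both intronic with 13 reads in ΔWAPL and 15 in ΔWAPL/ΔSCC4, against limits of 9 or 10 reads in wild-type. STAG2, a cohesin subunit gene, held 2 of 6, and the taller (chrX:123522352-123522852) had 30 and 37 reads and CTCF at 61.8, 35.8, 49.8 and 49.2 times the average, ordered wild-type, ΔWAPL, ΔSCC4 and ΔWAPL/ΔSCC4. NIPBL, the gene of SCC2, held 1 of 3 with 13 reads in both libraries. PDS5B, a cohesin-associated factor that binds WAPL, held 1 of 5, in an intron 568 bp from a start (chr13:33161115-33161824), with 70 reads in ΔWAPL, 24 in ΔWAPL/ΔSCC4 and a limit of 23 in wild-type. Its CTCF peak was called in ΔWAPL alone.

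Of the other gene families given here, 8 lay below the overall 16.1% and the cadherins and haematopoietic factors above it. Gained regions made up 1.92% of the SMC1 regions of the clustered protocadherins (2 of 104, at PCDHB9 and PCDHB13) and 7.50% of the SOX and PAX genes (3 of 40, at SOX6 and SOX13). They made up 12.4% in zinc-finger genes (43 of 348, with 3 each in ZNF407 and ZNF536), 11.1% in cytosolic ribosomal protein genes (7 of 63), 15.2% in potassium channel genes (25 of 164), 13.9% in ephrin and Eph receptor genes (5 of 36), 10.0% in WNT and frizzled genes (4 of 40) and 9 of 69 in semaphorin and plexin genes. The cadherins had 20.0% (11 of 55, with 3 each in CDH13 and CDH23). Haematopoietic transcription factor genes had 26.9% (7 of 26, among them 2 in FLI1 and 1 each in ERG, IKZF1, RUNX1 and SPI1). The lists are short, and these shares describe them only.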

How the data were processed

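The data were 12 ChIP-seq peak lists of HAP1 cells, 1 for each genotype and antibody, grouped by their titles. The authors mapped 65 bp single-end reads to hg19 with Bowtie2 and called peaks per library with MACS2 2.1.1, and the calling threshold is not given in the sources used here. The deposited lists give a fold enrichment (the ratio of summit pileup to local background, each with 1 read added), the −log10 p and −log10 q of that pileup, and a display score derived by the authors' caller, which was used for nothing here. The deposited lists differ in length from the peak numbers the study describes, and membership follows the deposited lists. The methods name IgG as the control, but the deposited backgrounds above the floor were whole read counts of the ChIP library itself in 10 kb.

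Summit pileup and background were recovered as the only whole number of reads that solves both fold enrichment and −log10 p, which succeeded for all SMC1 and CTCF peaks (rounded to 100%) and for 100% of 4822 simulated peaks. The genome-wide average was 6.79 to 8.41 reads per kb for SMC1 and 6.53 to 8.41 for CTCF, and it limits the precision of every pileup. Lists were merged at 1 bp overlap. Start sites came from GENCODE 44 on GRCh37, whose chromosome lengths are those of hg19. A 19 bp CTCF motif was learned from the 1000 strongest wild-type CTCF peaks of odd-numbered chromosomes within 50 bp of the summit, and called at the score that 5% of windows 1000 bp downstream reached. Shares with a motif and motif scores were taken on even-numbered chromosomes, whereas offsets and orientations used all chromosomes, the training ones included, CTCF summits and the score that 1% of windows reached. It was tested on simulated data, where 99.5% of 600 planted sites were found. Analyses used Python 3 with pysam, and all coordinates are 1-based.

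Members, gene lists, words and strata were chosen with earlier results of these data known. Named regions were taken, outside chromosome 8 and IgG peaks, by the lower of the −log10 q in ΔWAPL and ΔWAPL/ΔSCC4: 6 with CTCF in all genotypes, 3 with CTCF in both WAPL deletions only, 4 without CTCF near a start and 4 farther away. Named genes were the 6 protein-coding genes with most gained regions, ties included, and up to 5 per list of 12 gene lists, of which some genes and 1 list are not reported here. Of the 17 named regions, 12 sequences are printed, none touching an untranslated exon. There was 1 library per group, so no test was made, and 14 alternative settings were tried.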

Additional observations from a re-analysis of the deposited data

Results flagged for a closer look

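Loss of WAPL and of SCC4 were each compared in both backgrounds for the share of gained regions with CTCF and for the CTCF pileup, 4 comparisons in all. For 3, the value fell in one background and rose in the other, which is what marked them. For the share with CTCF on loss of SCC4, the rise in ΔWAPL cells was only from 87.4% to 87.8%. The intervals of these values overlap (86.5 to 88.2 and 87.0 to 88.6), so no reversal is shown there. None of these differences was tested, since each group had 1 library.

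The median CTCF pileup at gained regions with CTCF in all genotypes went from 37.8 to 28.6 times the library average on loss of SCC4 in wild-type cells (ratio 0.756) and from 35.0 to 37.7 on loss of SCC4 in ΔWAPL cells (1.08), a ratio of ratios of 1.42. Put the other way, loss of WAPL took it from 37.8 to 35.0 in wild-type cells (0.926) and from 28.6 to 37.7 in ΔSCC4 cells (1.32), again a ratio of ratios of 1.42. The share of gained regions with a CTCF peak went from 82.6% to 74.1% on loss of SCC4 in wild-type cells (0.897) and from 87.4% to 87.8% in ΔWAPL cells (1.00), a ratio of ratios of 1.12. Over all SMC1 regions that share went from 77.8% to 73.3% in wild-type cells and from 80.7% to 81.0% in ΔWAPL cells. The wild-type CTCF library had 6.53 reads per kb, that of ΔWAPL 8.41, of ΔSCC4 7.42 and of ΔWAPL/ΔSCC4 7.09, and the part of depth in these differences was not tested.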

How the results depend on the processing

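With 6 results and 14 settings, 60 values were recomputed, of which 30 stayed within the interval of the main value (for the number of regions, within 1.5 times) and 30 moved. Leaving out regions at IgG peaks, limiting to chromosomes 1 to 22 and X, and merging intervals closer than 500 bp moved none of the 6. All gained regions already lay on these chromosomes, so that limit could change nothing. Leaving out IgG peaks removed only 4 regions, so it could change little. The values of both settings are counted among the 30 that stayed. The number of gained regions was 4080 to 6233 under 8 settings and moved only to 843 with equal numbers of peaks, where the longer ΔWAPL lists are cut by construction. The share with CTCF in ΔWAPL (main 87.4%) was 93.6% at −log10 q of at least 5, 97.7% at 10, 96.0% at fold enrichment of at least 5, 94.2% with presence at −log10 q of at least 5, 98.9% with equal numbers and 86.2% with summits no more than 250 bp apart. The share near a start (29.3%) was 24.7%, 23.3%, 22.8%, 23.8% and 25.3% under the first 5 of these, 24.4% with protein-coding starts and 37.6% at 2500 bp. The share with a motif (61.5%) was 68.0%, 77.6%, 71.3%, 68.1% and 80.7%, and 48.6% at the score passed by 1% of flanking windows. The SMC1 ratio (0.845) was 0.819 at −log10 q of at least 10, 0.861 with presence at 5, 0.720 with equal numbers and 0.915 from fold enrichment. The CTCF ratio (0.882) was 0.865 at −log10 q of at least 5, 0.808 at 10, 0.860 at fold enrichment of at least 5, 0.873 after thinning, 0.857 with equal numbers and 0.996 from fold enrichment. Ratios stayed below 1 in all these settings, and the cause of the moves was not tested. No paired analysis was possible because each group had 1 library. Thinning could not add peaks that were never listed, and at this depth SMC1 below about 10 reads at a wild-type summit stays unlisted.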
